A study of Mus musculus with 21 samples.

Results

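The EGF family ligands and neuregulins are the secreted proteins that switch on the ErbB receptors, and their mRNA was followed here in mammary tumors driven by an activated *ErbB2/Neu* allele with or without added *RhoC*. The 10 members were taken by symbol from the gene names of the deposited tables: *Egf*, *Tgfa*, *Areg*, *Ereg*, *Hbegf*, *Btc*, *Epgn*, *Nrg1*, *Nrg2* and *Nrg4*. All 10 of 10 were among the 49652 genes with deposited counts, and all 10 passed the filter on low counts that left 19315 genes for testing. The 21 tumors came from mice with the FloxNeoNeuNT allele, an activated *Neu* cDNA placed in the mouse *Erbb2* locus behind a stop cassette, and the MMTV-CreNLST transgene, which removes the stop in mammary epithelium. The control cohort held 9 tumors of 9 mice, of which 7 also carried 1 Gata4 loxP allele (Gata4(loxP/+);FloxNeoNeuNT;MMTV-CreNLST) and 2 did not (FloxNeoNeuNT;MMTV-CreNLST). The RhoC cohort held 12 tumors of R26(RhoC/+);FloxNeoNeuNT;MMTV-CreNLST mice, in which the same Cre also turns on a wildtype mouse *RhoC* cDNA in the Rosa26 locus. Ages were not given in the labels. According to the study, tumors arose at a much younger age in RhoC mice than in controls. Cohort and age at tumor therefore cannot be told apart here.

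The 12 RhoC tumors were not 12 mice. Mouse P497 gave 4 of them (R-13, R-14, R-15 and R-16), mouse N9255 gave 2 (R-6 and R-7), and the sample label of R-18 names no mouse. Histotypes come from the study's tumor list and not from the sample labels, so they describe tumors here and form no group. Squamous cell carcinoma (SCC) was recorded for 3 tumors, R-6, R-13 and R-14, all in the RhoC cohort. The other codes were complex adenocarcinoma (CAC, 5 tumors), poorly differentiated adenocarcinoma (PDA, 4 tumors), solid nodular carcinoma (SNC, 3 tumors), spindle cell tumor (SCT, N-1), SNC or PDA (R-15) and PDA with adenomyoepithelioma (AME, R-2), and 3 tumors had none. The label of R-21 names a mouse that the tumor list gives under another tumor number, and neither entry has a histotype.

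ErbB receptor ligands are made as membrane proteins whose outer part carries an EGF-like domain and is cut free by ADAM proteases. EGF, TGF-α, amphiregulin (*Areg*) and epigen (*Epgn*) bind EGFR, while HB-EGF (*Hbegf*), betacellulin (*Btc*) and epiregulin (*Ereg*) bind EGFR and ErbB4, and the neuregulins bind ErbB3 or ErbB4. ErbB2 binds no known ligand and signals in pairs with the other receptors, so ligands act through its partners. In the mammary gland amphiregulin is known as the ligand through which estrogen drives duct growth, and TGF-α is known as a mammary oncogene in transgenic mice.

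On the GRCm38 build *Tgfa* (ENSMUSG00000029999.14) lies on the plus strand at chr6:86195223-86275719. *Epgn* (chr5:91027464-91035215), *Ereg* (chr5:91074622-91093646), *Areg* (chr5:91139599-91148432) and *Btc* (chr5:91357261-91402994) form a cluster of 375.53 kb in which the GENCODE M21 annotation places 4 protein-coding genes, these 4. *Btc* is transcribed from the opposite strand to the other 3 and lies 208.829 kb from *Areg*, whereas 39.407 kb separate *Epgn* from *Ereg* and 45.953 kb separate *Ereg* from *Areg*. *Egf* lies at chr3:129677565-129755316, *Nrg1* at chr8:31814551-32884797 and *Nrg4* at chr9:55220222-55326844. *Nrg4* overlaps the protein-coding gene *Fbxo22* on the opposite strand, and *Egf*, *Ereg* and *Nrg2* overlap annotated antisense transcripts. The strand setting of the counting is not given in the sources used here, so their reads and those of the opposite strand may not be fully separated.

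The promoters of *Tgfa*, the ligand with the called difference, and *Areg*, which moved with *Ereg* and *Hbegf* across tumors, are shown as the 250 bases before the RefSeq start site (GRCm38.p6, plus strand, 5′ to 3′). Capitals mark matches on either strand to the motifs searched, which were the TATA box TATAAA, the GC box GGGCGG, the AP-1 motif TGANTCA, the cyclic AMP response element TGACGTCA, the TEAD motif GGAATG and the SRF CArG box.
*Tgfa*, chr6:86194972-86195221: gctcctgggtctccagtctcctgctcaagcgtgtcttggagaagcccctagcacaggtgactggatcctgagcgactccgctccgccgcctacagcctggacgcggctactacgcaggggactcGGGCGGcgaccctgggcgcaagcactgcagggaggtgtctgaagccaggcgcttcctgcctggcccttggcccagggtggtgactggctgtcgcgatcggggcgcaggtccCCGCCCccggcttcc
*Areg*, chr5:91139349-91139598: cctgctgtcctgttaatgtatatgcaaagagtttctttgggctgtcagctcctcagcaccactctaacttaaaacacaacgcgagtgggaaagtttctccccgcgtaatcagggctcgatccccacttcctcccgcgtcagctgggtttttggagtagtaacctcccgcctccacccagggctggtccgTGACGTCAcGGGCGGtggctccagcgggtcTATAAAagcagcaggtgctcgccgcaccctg
The *Tgfa* window held 2 GC box matches, beginning at positions -126 and -15 from the start site, no TATA box and 69.2% G or C. The *Areg* window held 1 match each to the cyclic AMP response element (position -61), the GC box (-52) and the TATA box (-31), with 57.2% G or C. Of 32851 mouse promoter windows of this length, 12.4% held the TATA box, 32.7% the GC box, 6.75% the AP-1 motif, 1.55% the cyclic AMP response element, 12.6% the TEAD motif and 1.47% the CArG box. These are letter matches and not measured binding, and 6 of the 10 members had a window in the reference table.

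Library depth was even between cohorts. Each tumor had between 47309780 and 100741339 counted read pairs, with medians of 64729272 in the control cohort and 60157351 in the RhoC cohort, and levels below are CPM, the read count scaled to library size, with TMM factors, unless stated. *Rhoc* itself stood at 77.7 ± 53.7 CPM (SD, n = 9) in control and 88.8 ± 33.5 CPM (SD, n = 12) in RhoC tumors, a log2 fold change of 0.19 with SE 0.34 and an edgeR adjusted p of 0.774, and the cohorts overlapped in *Rhoc* mRNA. Of the RhoC tumors 11 of 12 lay above the control median of 50.7, but the library labelled R-2 was the lowest of all tumors (22.8 CPM, against a control minimum of 25.98 in N-7), and control N-8 was the highest (172 CPM, against a RhoC maximum of 148). Without R-2 the log2 fold change of *Tgfa*, described below, was 1.97 with an edgeR adjusted p of 0.0470. The transgene is a mouse cDNA, so its reads and those of the endogenous gene can fall on the same gene. The 12 luminal markers summed to between 1451 and 6428 CPM, though *Pgr* and *Foxa1* were each at 0 reads in at least 1 tumor.

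*Tgfa*, which encodes the EGFR ligand TGF-α, was higher in RhoC tumors. In the control cohort it ranged from 16.4 CPM in N-7 through a median of 43.9 to 84.8 in N-3. In the RhoC cohort it ranged from 78.4 CPM in R-21 through a median of 137 to 538 in R-6. Each of the 12 RhoC tumors exceeded the control median and 10 of 12 lay above every control, and the cohorts overlapped only through R-21, R-15 (79.95 CPM) and the 3 highest controls, N-3, N-9 (81.9) and N-8 (79.7). The means were 51.1 ± 25.0 CPM (SD, n = 9) and 192 ± 145 CPM (SD, n = 12), and the log2 fold change of 1.91 (SE 0.40, 95% interval 1.09 to 2.73), which is 3.76 fold, had an edgeR p of 8.22e-05 and an adjusted p of 0.0441. *Tgfa* ranked 36 by p among all tested genes. The exact two-sided permutation test over all 293930 ways to divide the tumors gave p = 1.05e-04. It took tumors as units, so tumors of the same mouse could fall in different cohorts.

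**Figure D1:**
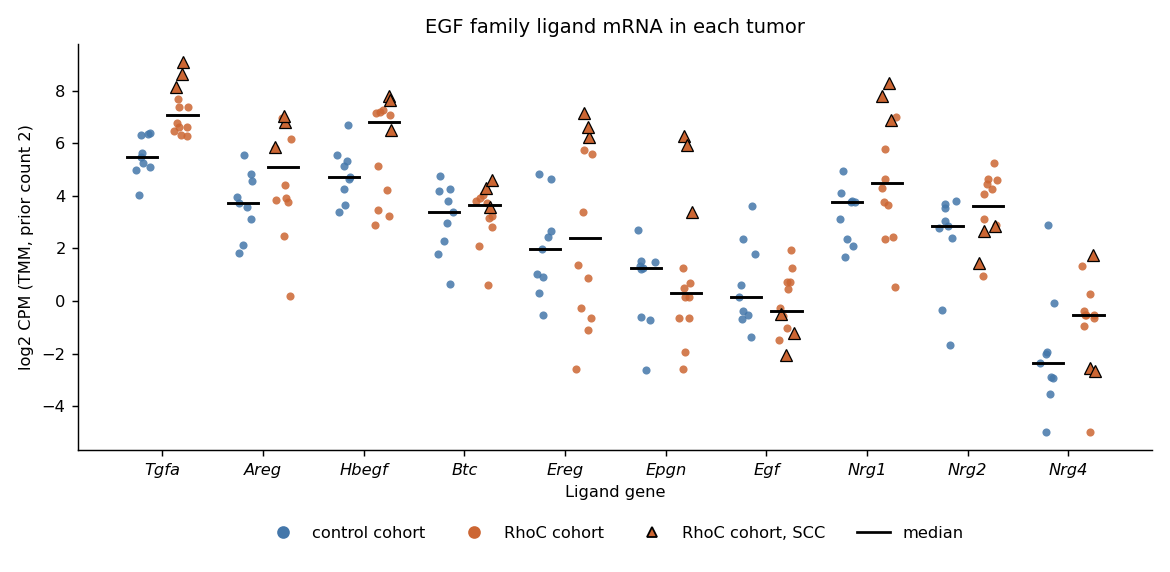
Levels of the 10 ligand genes in each tumor, as log2 CPM (TMM, prior count 2) on the vertical axis; each point is a tumor, triangles are the 3 squamous cell carcinomas and bars are cohort medians. For *Tgfa* 10 of 12 RhoC tumors sit above every control, whereas the cohorts overlap widely for *Btc*, *Epgn* and *Egf*.

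The size of the *Tgfa* difference depended on the squamous tumors, and its place under the threshold depended on single libraries. The 3 SCC tumors were the 3 highest (538 CPM in R-6, 398 in R-13 and 281 in R-14), and without them the log2 fold change was 1.25 (SE 0.29, p = 4.39e-04) with an edgeR adjusted p of 0.107. Without mouse P497 the log2 fold change was 1.82 (adjusted p = 0.166), and with counts summed per mouse it was 1.63 (adjusted p = 0.0986). Leaving out any of N-1, N-4, N-6, N-7, N-8, N-9, N-17, R-6, R-13, R-14 or R-16 moved the edgeR adjusted p above 0.05, to between 0.0509 without N-17 and 0.0753 without N-1, with log2 fold changes between 1.66 and 2.04 over all 21 omissions. DESeq2 gave a log2 fold change of 1.93 with an adjusted p of 2.09e-04.

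Of the 10 members, edgeR called 1 higher in RhoC tumors (*Tgfa*) and 0 lower, against 0.0932% of all tested genes called higher, 0.129% called lower and 0.223% called in either direction. For no member were the cohorts fully apart, a property of 0.0155% of tested genes. At an unadjusted p under 0.05, 5 members were higher and 0 lower (*Tgfa*, *Nrg1*, *Areg*, *Hbegf* and *Epgn*), where 10.5% of all tested genes were higher at that level. The log2 fold change was positive for 8 members and negative for 2, with a median of 1.52, beside -0.01 over all tested genes. With all 12 RhoC tumors above the control median *Tgfa* stood alone among the members, and 3.12% of tested genes had that property. DESeq2 called 2 members, *Tgfa* and *Nrg1*, against 3.66% of genes called higher and 6.24% called in either direction. With mouse as a random effect limma voom called 0 members, with 1 member at an unadjusted p under 0.05. Of all 19315 tested genes voom called 3, with 2513 at that unadjusted level in either direction.

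**Figure D2:**
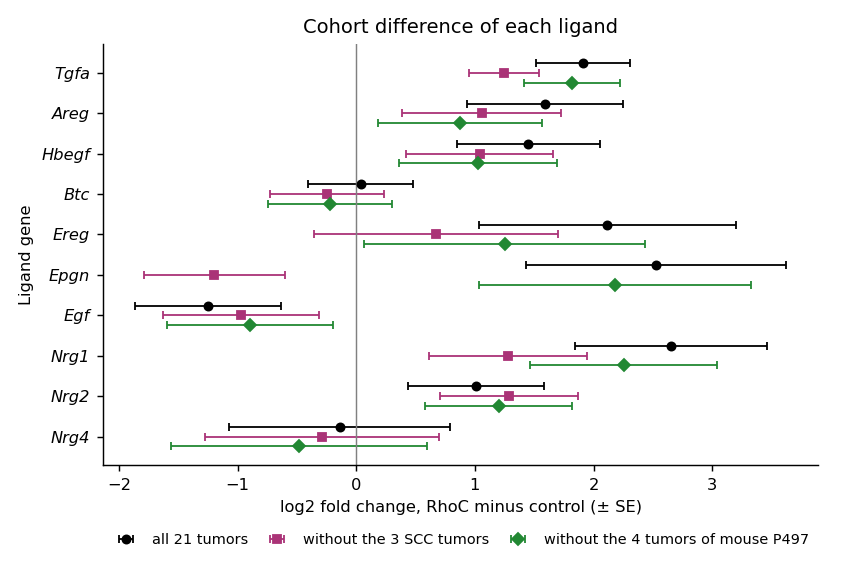
Log2 fold change of each ligand, RhoC minus control, from edgeR with its standard error as bars, for all 21 tumors, without the 3 squamous cell carcinomas and without the 4 tumors of mouse P497. *Tgfa*, *Nrg1*, *Areg*, *Hbegf*, *Ereg* and *Nrg2* stay above 0 in all 3 fits, while *Epgn* goes from 2.53 to -1.20 without the squamous tumors.

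*Nrg1*, the neuregulin best known from Schwann cells and heart and a ligand of ErbB3 and ErbB4, did not pass the threshold. Control tumors ran from 3.13 CPM (N-7) through a median of 13.4 to 30.6 (N-8), and RhoC tumors from 1.42 (R-21) through a median of 22.4 to 313 (R-13). The RhoC cohort therefore held both the lowest and the highest tumors, with 5 of 12 above every control: R-13, R-6 (225), R-12 (129), R-14 (119) and R-18 (54.7). The edgeR log2 fold change was 2.66 (SE 0.81, adjusted p = 0.101), and 1.28 (adjusted p = 0.366) without the SCC tumors. DESeq2 gave 2.67 with an adjusted p of 0.00752, and the exact permutation p on log2 CPM was 0.0996.

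*Areg*, the ligand of ductal growth, had a control range of 3.50 CPM (N-1) to 46.4 (N-8) with a median of 13.2, and a RhoC range of 1.11 (R-21) to 131 (R-14) with a median of 38.7. Of the 12 RhoC tumors 6 lay above every control, namely the 4 tumors of mouse P497 (56.4 to 131 CPM), R-6 (112) and R-12 (71.2), and the remaining 6 lay within or below the control range. The edgeR log2 fold change was 1.59 (SE 0.66, adjusted p = 0.185). It was 0.88 (adjusted p = 0.619) without mouse P497, and the exact permutation p was 0.183.

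*Hbegf*, the heparin-binding ligand that also serves as the diphtheria toxin receptor in primates and lies on chromosome 18 like *Nrg2*, showed a RhoC cohort that fell into separate high and low tumors. Control tumors ran from 10.3 CPM (N-3) through a median of 26.2 to 103 (N-8). In the RhoC cohort 7 of 12 tumors lay between 91.1 (R-14) and 219 CPM (R-6), and the other 5 lay between 7.37 (R-18) and 34.9 CPM (R-7), inside or below the control range. The edgeR log2 fold change was 1.45 (SE 0.60, adjusted p = 0.185), and the exact permutation p was 0.174.

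*Ereg* and *Epgn*, neighbours in the chromosome 5 cluster, varied more among RhoC tumors than the other ligands with reads in every tumor. *Ereg* ran from 0.136 (R-1) to 141 CPM (R-6) in RhoC tumors, a ratio of 1035 between the highest and lowest tumor, and from 0.67 (N-17) to 28.6 CPM (N-6) in controls. The 5 RhoC tumors above every control for *Ereg* were the 3 SCC tumors and the other 2 tumors of P497, R-15 (54.1) and R-16 (48.5). *Epgn* was at 78.1 CPM in R-6, 61.2 in R-13 and 10.4 in R-14, while the other 9 RhoC tumors lay between 0.133 and 2.33 CPM, under the control median of 2.34. The edgeR log2 fold changes were 2.12 for *Ereg* (SE 1.08, adjusted p = 0.271) and 2.53 for *Epgn* (SE 1.09, adjusted p = 0.204), with exact permutation p of 0.602 and 0.700.

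The direction for *Epgn* rested on the squamous tumors. Without them its log2 fold change was -1.20 (SE 0.59, edgeR adjusted p = 0.343), and DESeq2, which by default replaces outlying counts, gave -0.27 with all 21 tumors and 2.56 with that replacement turned off. The median in RhoC tumors (1.23 CPM) was below that in controls. For *Ereg* the log2 fold change was 0.67 without the SCC tumors, and -1.79 (adjusted p = 0.513) without the SCC tumors and mouse P497.

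*Btc*, the fourth gene of the cluster, showed no detectable cohort difference. It lay between 1.54 and 27.1 CPM in control tumors (median 10.4) and between 1.503 and 24.5 CPM in RhoC tumors (median 12.5), with 0 of 12 RhoC tumors above every control. The log2 fold change was 0.04, with a 95% interval of -0.89 to 0.96 (edgeR adjusted p = 0.971). Across tumors it varied with its neighbours, with r = 0.60 to *Epgn* (rho = 0.65), r = 0.53 to *Ereg* (rho = 0.61) and r = 0.48 to *Areg* (rho = 0.50) in log2 CPM over the 21 tumors, given with no test. *Nrg1*, on another chromosome, was about as close as *Areg* (r = 0.47, rho = 0.53). Without the SCC tumors r was 0.66 for *Epgn*, 0.44 for *Ereg*, 0.37 for *Areg* and 0.38 for *Nrg1*.

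*Egf*, which gave the family its name, was low in nearly all tumors. Control values ran from 0.352 CPM (N-15) through a median of 1.07 to 12.1 (N-17), and RhoC values from 0.209 (R-13) through 0.737 to 3.84 (R-1), so the cohorts overlapped. Its log2 fold change was -1.25 (SE 0.62, edgeR adjusted p = 0.255), and -0.49 (adjusted p = 0.640) without N-17. N-17 also had the highest summed skeletal muscle markers (4502 CPM, against a control median of 1.22) and adipocyte markers (941 CPM, against 5.52), with *Ckm*, *Myh1*, *Myh4* and *Tnnt3* at 0 reads in at least 1 other tumor. The part of these tissues in the *Egf* value was not tested.

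The other neuregulins differed from *Nrg1*. *Nrg2* ran from 0.283 (N-7) to 13.8 CPM (N-3) in controls and from 1.92 (R-12) to 38.0 CPM (R-21) in RhoC tumors, with medians of 7.21 and 12.8. The 6 RhoC tumors above every control, R-21, R-1 (25.1), R-16 (24.6), R-10 (21.9), R-7 (18.9) and R-18 (16.8), included none of the SCC tumors, which lay between 2.70 and 7.14 CPM. Its log2 fold change was 1.01 (SE 0.57, edgeR adjusted p = 0.319), and 1.29 (adjusted p = 0.303) without the SCC tumors. *Nrg4*, known from brown fat, was at or below 3.31 CPM in all tumors but N-17 (7.35), and at 0 reads in N-15 and R-12, where 3 reads would stand for 0.0586 and 0.0509 CPM. Its medians were 0.162 and 0.656 CPM, but its log2 fold change was -0.14 (SE 0.93, edgeR adjusted p = 0.944), and 2.03 without N-17.

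**Figure D3:**
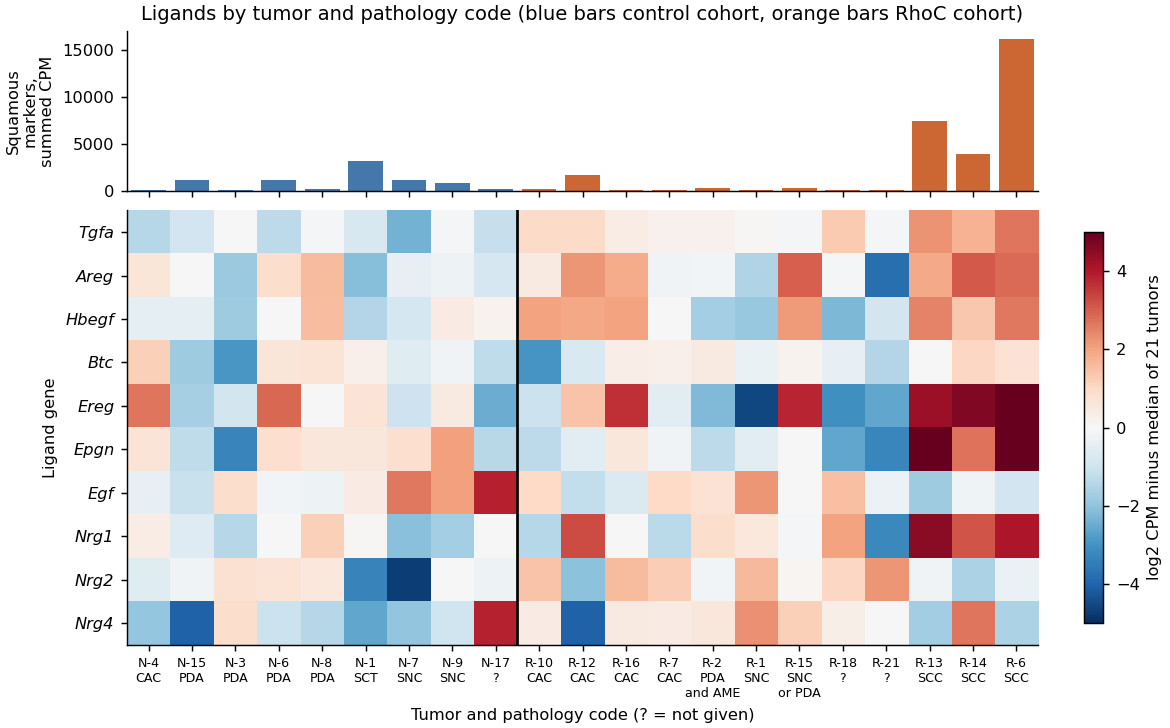
Upper panel, summed CPM of 16 squamous keratinocyte markers in each tumor; lower panel, log2 CPM of each ligand minus its median over the 21 tumors (colours end at 5 above and below), with the tumor name and histotype code under each column. The 3 SCC columns at the right are the highest for *Tgfa*, *Ereg* and *Epgn* but not for *Nrg2*.

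The summed levels of the squamous and of the basal markers were highest in the 3 SCC tumors, but single markers were not all so: *Krt10*, a keratin of differentiating epidermis, was at 37.99 ± 93.6 CPM (SD, n = 9) in controls and 1.13 ± 0.64 CPM (SD, n = 12) in RhoC tumors, which hold all 3 SCC tumors. Within the 12 RhoC tumors the summed squamous level went, as a description on log2 scales, with *Tgfa* (r = 0.84, rho = 0.69), *Nrg1* (r = 0.83, rho = 0.72), *Epgn* (r = 0.82, rho = 0.59), *Areg* (r = 0.77, rho = 0.75), *Ereg* (r = 0.77, rho = 0.80), *Hbegf* (r = 0.65, rho = 0.62) and *Btc* (r = 0.42, rho = 0.45). It went against *Nrg2* (r = -0.81, rho = -0.90), *Egf* (r = -0.66, rho = -0.61) and *Nrg4* (r = -0.45, rho = -0.30). Over the 18 tumors of both cohorts that were not SCC, r was -0.28 for *Tgfa*, 0.18 for *Nrg1*, 0.47 for *Epgn*, 0.29 for *Areg*, 0.31 for *Ereg*, 0.18 for *Hbegf*, 0.12 for *Btc*, -0.70 for *Nrg2*, -0.08 for *Egf* and -0.59 for *Nrg4*. Within the 9 controls r lay between -0.48 (*Nrg2*) and 0.45 (*Epgn*), with -0.24 for *Tgfa*, -0.22 for *Nrg1* and 0.03 for *Egf*. Other marker lists gave values of similar size for some ligands within the RhoC tumors. Neutrophil markers went with *Epgn* (r = 0.93) and *Ereg* (r = 0.80), and basal markers with *Ereg* (r = 0.81) and *Tgfa* (r = 0.78). Schwann cell and nerve markers went against *Tgfa* (r = -0.85). The 16 squamous keratinocyte markers summed to between 24.1 and 3195 CPM in controls and between 7.06 (R-1) and 16249 CPM (R-6) in RhoC tumors, but their medians were 845 and 173. Of these markers 11 were tested and edgeR called 0, with 0 higher and 1 lower at an unadjusted p under 0.05, while DESeq2 called *Krt10* lower. *Krt1*, *Krt6a*, *Krt6b*, *Ivl*, *Lor*, *Sprr1a*, *Sprr1b*, *Sprr2d*, *Sprr3* and *Dsc3* were each at 0 reads in at least 1 tumor. The 10 basal and myoepithelial markers summed to between 332 and 3326 CPM in controls and between 262 (R-1) and 21910 CPM (R-6) in RhoC tumors, and edgeR called 0, with 2 higher at an unadjusted p under 0.05, while DESeq2 called *Itgb4* and *Lama3* higher. At that edgeR level 10.5% of all tested genes were higher and 20.5% differed in either direction, and DESeq2 called 6.24%. In bulk tumors, more cells of a type and more RNA per cell cannot be told apart. The part of squamous and basal cells in the ligand differences was not tested.

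Levels of different ligands were compared per length, on the deposited FPKM scale. In both cohorts the median order began *Hbegf*, *Areg*, *Tgfa*, *Btc*, *Nrg2*, *Nrg1*. Control medians were 11.02 FPKM for *Hbegf*, 10.6 for *Areg* and 6.78 for *Tgfa*, and RhoC medians were 47.4, 31.6 and 20.9 FPKM. On the alternative scale of CPM per kb of annotated exon, *Areg* came first in both cohorts (medians 10.9 and 31.9), *Hbegf* came after *Tgfa* in controls (5.42 against 6.77) and before it in RhoC tumors (23.4 against 21.2), and *Nrg2* came before *Btc*. On the FPKM scale the first 3 places did not separate from each other, since *Hbegf* exceeded *Areg* in 5 of 9 control and 6 of 12 RhoC tumors, and *Areg* exceeded *Tgfa* in 6 of 9 and 5 of 12. *Tgfa* exceeded *Btc* in 7 of 9 control and in all 12 RhoC tumors. *Btc*, *Nrg2* and *Nrg1* followed with medians of 3.31, 2.18 and 1.31 FPKM in controls and 4.07, 3.82 and 2.25 FPKM in RhoC tumors, with each higher than the next in 6 of 9 and 6 of 12 tumors. *Ereg* and *Epgn* had medians from 0.681 to 1.56 FPKM in the 2 cohorts, and *Egf* and *Nrg4* lay at or below 0.138 FPKM in median.

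**Figure D4:**
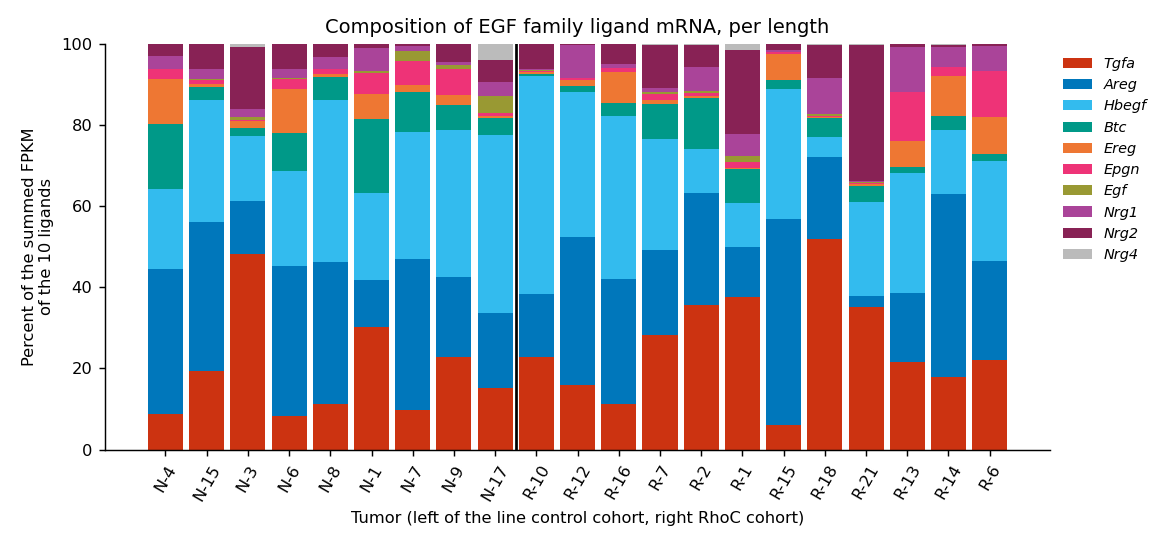
Share of each ligand in the summed FPKM of the 10 ligands, in percent, for each tumor; the control cohort stands left of the line. *Tgfa*, *Areg* and *Hbegf* fill most of each bar, with *Tgfa* between 8.38% and 48.2% in control and between 6.07% and 51.9% in RhoC tumors.

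The ligand with the highest FPKM was *Areg* in 4, *Hbegf* in 3 and *Tgfa* in 2 of 9 control tumors, and *Tgfa* in 5, *Hbegf* in 4 and *Areg* in 3 of 12 RhoC tumors. *Tgfa* made up a median of 15.2% of the summed ligand FPKM in controls and 22.5% in RhoC tumors, a difference smaller than the spread between tumors (SD 13.1 and 12.8 percentage points). The sum itself ran from 25.1 to 109 FPKM in controls (median 37.4) and from 33.7 to 381 FPKM in RhoC tumors (median 130). The 3 SCC tumors had the 3 highest sums, and the lowest RhoC sums, in R-21 (33.7) and R-1 (37.0), were near the control median. Where *Tgfa* led in the RhoC cohort (R-1, R-2, R-7, R-18 and R-21) the sum was at most 61.3 FPKM.

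Several ligands varied together over the 21 tumors, given here as correlations of log2 CPM within shared libraries, as a description with no test. *Areg* followed *Hbegf* (Pearson r = 0.78, Spearman rho = 0.76) and *Ereg* (r = 0.76, rho = 0.75). Without the 3 SCC tumors these were r = 0.73 and r = 0.66, and without the 2 tumors farthest from the *Areg* median r = 0.84 and r = 0.74. Within the 9 controls *Areg* and *Hbegf* kept r = 0.80, but *Areg* and *Ereg* had r = 0.39 (rho = 0.33), and *Ereg* and *Hbegf*, at r = 0.73 over all tumors, had r = 0.08. Without the SCC tumors and mouse P497 these 3 pairs had r = 0.62, r = 0.50 and r = 0.46. *Ereg* followed *Epgn* (r = 0.75, rho = 0.77, r = 0.58 without the SCC tumors and r = 0.55 within controls). *Tgfa* and *Nrg1* had r = 0.69 (rho = 0.54), but r = 0.36 without the SCC tumors and r = 0.18 within the 9 controls, so that relation rested on the squamous tumors. *Egf* ran against *Ereg* (r = -0.63, rho = -0.58, and r = -0.53 without the SCC tumors). Over all 45 pairs the median r was 0.19.

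The genes whose pattern was most like each ligand, by Pearson r of log2 CPM over the 21 tumors among all tested genes, were mostly outside the pathway. For *Tgfa* they were *Cldnd1* (r = 0.81), *Ddb1* (r = 0.80) and *Hdac6* (r = 0.80). For *Areg* they were *3300005D01Rik* (r = 0.90), *Epha2* (r = 0.86), which encodes an ephrin receptor, and *Slit1* (r = 0.86). For *Epgn* they were *Sult2b1* (r = 0.92), which makes cholesterol sulfate in epidermis, *Mpzl3* (r = 0.88) and *Cxcl3* (r = 0.86), and for *Hbegf* they were the glucose transporter gene *Slc2a3* (r = 0.87), the plasminogen activator gene *Plat* (r = 0.87) and *Itpripl2* (r = 0.86). *Ereg* was closest to *Csnk1a1* (r = 0.88), *Fam167a* (r = 0.88) and *Smad4* (r = 0.86), and *Nrg1* to *Sytl5* (r = 0.90), *Gdnf* (r = 0.86) and *1810037I17Rik* (r = 0.85). *Btc* was closest to *Myo6*, *Cpne3* and *Hebp2* (each r between 0.83 and 0.84), *Nrg2* to *Gm12251* (r = 0.77), *Hs3st1* (r = 0.76) and *Wnk4* (r = 0.75), *Egf* to *5730521K06Rik* (r = 0.83), *Mss51* (r = 0.81) and *Sh3bgr* (r = 0.78), and *Nrg4* to *Rbm20* (r = 0.77), *Neu2* (r = 0.75) and *Cfap126* (r = 0.73).

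The receptors showed no called difference. edgeR called 0 of 4, with 0 at an unadjusted p under 0.05, and DESeq2 and voom also called 0. Of all tested genes 20.5% were under that unadjusted level in edgeR. *Egfr* stood at 169 ± 114 CPM (SD, n = 9) in control and 206 ± 70.9 CPM (SD, n = 12) in RhoC tumors, with a log2 fold change of 0.28 (SE 0.33, edgeR adjusted p = 0.645). *Erbb2*, whose locus carries the oncogene, stood at 1339 ± 882 and 806 ± 522 CPM, a log2 fold change of -0.73 (SE 0.46, edgeR adjusted p = 0.370), and was lowest in control N-15 (57.9 CPM). *Erbb3*, the main neuregulin receptor, stood at 380 ± 102 and 358 ± 128 CPM (log2 fold change -0.09, SE 0.21). *Erbb4* ranged from 0 to 45.2 CPM in control and from 0.0739 to 66.3 CPM in RhoC tumors (log2 fold change 1.06, SE 1.34), with 10 of the 21 tumors, 5 in each cohort, at 0.543 CPM or less.

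Of the 6 genes for ligand-shedding proteases and their iRhom cofactors edgeR called 0, with 3 higher and 1 lower at an unadjusted p under 0.05. At that level 10.5% of all tested genes were higher and 20.5% differed in either direction. *Rhbdf2*, which encodes iRhom2, the cofactor that carries ADAM17 to the cell surface, ran from 16.5 to 105 CPM in controls (median 58.7) and from 68.5 to 423 CPM in RhoC tumors (median 117), with each of the 12 RhoC tumors above that control median. Its log2 fold change was 1.39 (SE 0.36) with an edgeR adjusted p of 0.0714, and DESeq2 called it. *Adam12* had a log2 fold change of 1.30 (SE 0.49, edgeR adjusted p = 0.154), *Rhbdf1* 0.42 (SE 0.17, adjusted p = 0.177) and *Adam9* -0.42 (SE 0.20, adjusted p = 0.237). *Adam17*, the main sheddase of TGF-α and amphiregulin, and *Adam10*, the main sheddase of EGF and betacellulin, had log2 fold changes of -0.18 (SE 0.15) and 0.08 (SE 0.21), with adjusted p of 0.531 and 0.855.

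Further down the pathway, edgeR called 1 gene. Beside the counts below, 10.5% of all tested genes were higher and 20.5% differed in either direction at an unadjusted edgeR p under 0.05. DESeq2 called 3.66% of all tested genes higher and 6.24% in either direction. Among 12 inhibitors of the receptors 0 were called, with 0 higher and 2 lower at an unadjusted p under 0.05. *Errfi1*, a feedback inhibitor of EGFR, had a log2 fold change of -0.78 (SE 0.22, edgeR adjusted p = 0.0886), and DESeq2 called it lower. *Erbin* and *Lrig1* had log2 fold changes of -0.35 (SE 0.15, adjusted p = 0.214) and 0.42 (SE 0.21, adjusted p = 0.268). Among 22 adaptors and signal carriers *Grb7*, an adaptor whose gene neighbours *Erbb2*, was lower in RhoC tumors by 3.74 on the log2 scale (SE 0.49, edgeR adjusted p = 9.98e-04). It stood at 1293 ± 714 CPM (SD, n = 9) in control and 96.6 ± 55.6 CPM (SD, n = 12) in RhoC tumors. By digital PCR the study found higher mean copy numbers of *Grb7* in controls, a difference that was not significant. The part of copy number in the *Grb7* level was not tested here. At an unadjusted p under 0.05, 5 of the 22 were higher and 5 lower, *Grb7* included. *Hras* had a log2 fold change of 0.997 (SE 0.27, edgeR adjusted p = 0.0815) and *Gab2* -0.50 (SE 0.16, adjusted p = 0.118). Among 18 ERK feedback and immediate early genes, which are commonly read as output of the receptors, 0 were called, with 3 higher and 0 lower at an unadjusted p under 0.05. These were *Etv4* (1.07, SE 0.33, edgeR adjusted p = 0.104), which DESeq2 called, *Fosl1* (2.16, SE 0.996, adjusted p = 0.227) and *Spry4* (1.05, SE 0.49, adjusted p = 0.233), all as log2 fold changes. Over the 18 genes the median log2 fold change was 0.12.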

How the data were processed

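RNA of 21 mouse mammary tumors (9 control, 12 RhoC) was sequenced after ribosomal depletion in stranded paired-end libraries. The authors trimmed reads with Trim Galore 0.5.0, aligned them with STAR 2.6.0c to GRCm38.p6 and deposited raw counts per gene from HTSeq 0.6.1p2, in which reads on more than 1 gene were discarded. The deposited FPKM values stand beside the authors' DESeq2 results, whose fold change and p-value columns were not used. The strand setting and annotation release are not given in the sources used here.

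Counts were scaled by TMM, filtered by filterByExpr and tested with edgeR 4.0.16 (quasi-likelihood, R 4.3.3), with Benjamini-Hochberg adjustment over 19315 genes and a threshold of 0.05. The p-values treat tumors as independent, although 2 mice gave 4 and 2 of the RhoC tumors. The limma 3.58.1 estimate of the correlation within mice was 0.27. Exact permutation tests used log2 CPM with a prior count of 2. FPKM served for levels between genes, with CPM per kb of the GENCODE M21 exon union as the alternative. Alternatives were DESeq2 1.42.0, voom with mouse as a random effect, other scalings, filters and tumor sets, and each tumor left out. The tests were checked on simulated counts of independent tumors, with variation capped below that of every member. That check therefore does not cover the members or tumors that share a mouse.

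The members, gene lists, motifs and tests were chosen with earlier results of these data known. All members, all receptors and shedding genes, the 3 genes with the smallest p of each other pathway list and the 3 nearest genes of each member are named, with *Rhoc* as a check of the labels, and the genes of 14 marker lists are given as counts and summed levels. *Gata4* failed the filter on low counts, with a control mean of 13.8 ± 19.6 CPM (SD, n = 9, highest 50.0, median 0.0181) and a highest RhoC value of 5.51 CPM.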

Additional observations from a re-analysis of the deposited data

Results flagged for a closer look

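In the 9 control tumors, 4 CPM values of the 10 ligands stood far from the rest, by the gap to the nearest tumor as a share of the cohort's range. Chance flags about 1 in 20 groups where values are normally distributed, which these skewed CPM are not, so 4 of 10 cannot be set against that rate. On the log2 CPM scale 0 values stood out, with gaps of 0.378 of the range for *Nrg4*, 0.250 for *Egf*, 0.340 for *Hbegf* and 0.221 for *Epgn*. *Nrg4* was at 7.35 CPM in N-17, where the next control, N-3, had 0.912 CPM. *Egf* was at 12.1 CPM in the same tumor, where the next control, N-7, had 5.08 CPM. *Hbegf* was at 103 CPM in N-8, where the next control, N-9, had 47.3 CPM. *Epgn* was at 6.4996 CPM in N-9, where the next control, N-7, had 2.85 CPM. The RhoC cohort, with 12 tumors, was not examined this way.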

How the results depend on the processing

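The adjusted p of *Tgfa* lay close to the threshold, and its direction held in all 17 alternatives and all 21 omissions of a tumor. The log2 fold change fell short of the threshold at 1.63 with counts summed over each mouse, 1.70 in voom with mouse as a random effect, 1.82 without mouse P497, 1.25 without the 3 SCC tumors, 1.90 without the spindle cell tumor N-1 and 1.33 without P497 and the SCC tumors, the last an alternative chosen after seeing the data. With a single tumor left out it lay between 1.66 and 2.04. Members called numbered 2 by DESeq2, with or without replacement of outlying counts (the second also added later), and 0 in each of the settings just listed; single omissions gave 0 to 1. Pathway genes called numbered 6 by DESeq2 in both forms, 0 without P497 and the SCC tumors, and 1 to 1 with single omissions.

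All genes called numbered 43 in the reported fit (18 higher, 25 lower), 1206 by DESeq2 (1093 without replacement), 27 with library size (7 higher, 20 lower), 3 with counts summed over each mouse, 3 by voom, 438 with Gata4 loxP/+ controls only, 3 without P497, 26 without the SCC tumors, 19 without N-1 and 1 without P497 and the SCC tumors, and from 14 (without N-9) to 346 (without N-15) with single omissions. Members past 0 in the other direction were *Btc* at -0.27 with counts summed over each mouse, -0.21 with Gata4 loxP/+ controls, -0.22 without P497, -0.25 without the SCC tumors and -0.43 without both, and -0.11 to 0.28 with single omissions. *Epgn* was at -0.27 by DESeq2, -0.086 by voom, -1.20 without the SCC tumors and -1.65 without both. *Ereg* was at -0.089 by voom and -1.79 without both. *Nrg4* was at 1.91 by DESeq2, 1.14 by voom, 1.84 with Gata4 loxP/+ controls, 1.11 and 1.27 in the exact permutation with prior counts of 2 and 0.5, and -0.53 to 2.03 with single omissions. Apart from constructions that use fewer tumors, the cause was not tested. The median r of the ligand pairs was 0.049 without the SCC tumors.

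Replicate numbers do not pair the samples: the deviations of same-numbered tumors correlated at -0.24, -0.18, -0.0029 and 0.02. With the replicate block on numbers 1, 6 and 15, and without it on the same tumors, edgeR called 0 genes (539 and 1096 at an unadjusted p under 0.05), so 0 members and 0 pathway genes. Number 7, overlooked at first, was added later, and 0 genes were called again (1346 and 2119 at an unadjusted p under 0.05). The *Tgfa* log2 fold change was 1.77 with the block and 2.42 without it on 3 numbers, and 2.001 and 2.44 on 4. *Egf* was at 0.72 and 1.20 on 3 numbers and 0.093 with the block on 4, and *Nrg4* at 4.08 and 3.73 on 3 and 3.48 and 3.52 on 4. The biological coefficient of variation in edgeR was 0.585 (*Tgfa*) to 1.41 (*Ereg*) among members, against a median of 0.491 over tested genes, and depth limited the values of *Nrg4*, with 0 reads in N-15 and R-12.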

Other observations

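Across the 14 marker lists edgeR called 0 of 98 tested genes, with 9 higher and 7 lower at an unadjusted p under 0.05, while DESeq2 called 9 and voom 0. Over all tested genes 10.5% were higher and 20.5% differed in either direction at that edgeR level, and DESeq2 called 6.24%. Milk protein genes had their highest summed level in R-18 (80045 CPM), the tumor in which *Tgfa* made up the largest share of the ligand FPKM of any tumor (51.9%). Over the 21 tumors, though, the *Tgfa* level went against the summed milk protein level (r = -0.41 on log2 scales). The value was r = -0.49 within RhoC tumors, -0.25 within controls and -0.05 without the SCC tumors. Neutrophil markers summed to 760 CPM in R-6, the tumor highest in *Tgfa*, *Hbegf*, *Ereg* and *Epgn*, where the RhoC median was 27.3 CPM. Schwann cell and nerve markers, of interest because *Nrg1* acts on Schwann cells, were lowest in R-6 (71.4 CPM against a RhoC median of 454), the tumor with the second highest *Nrg1* level.

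The tumors of mouse P497 give ligand levels in 4 tumors of a shared host. *Ereg* lay between 48.5 and 96.9 CPM and *Hbegf* between 91.1 and 198 CPM in these 4, whereas *Nrg1* was at 313 and 119 CPM in the squamous R-13 and R-14 but at 12.5 and 13.4 CPM in R-15 and R-16. In the pair from mouse N9255 *Ereg* was at 141 CPM in the squamous R-6 and 2.59 CPM in the complex adenocarcinoma R-7, and *Tgfa* was at 538 and 98.5 CPM. Histotype and mouse were not separated by a test.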
